A study of Oncorhynchus mykiss with 18 samples.

Results

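The miR-15 and miR-16 family was followed across blood plasma, tank water and epidermal mucus of rainbow trout (Oncorhynchus mykiss). Its members were taken by name: rows of the deposited count table named for miR-15, miR-16, miR-195 or miR-457 of Atlantic salmon (Salmo salar), whose miRNA names the authors used for the trout. This gave 8 members among 4884 rows, of which 212 carry the name of a known miRNA and the others are predicted locations in the trout genome. The members were 5 miR-15 rows (ssa-miR-15a-3p, ssa-miR-15b-5p, ssa-miR-15c-5p, ssa-miR-15d-5p and ssa-miR-15e-5p) and 3 miR-16 rows (ssa-miR-16a-5p, ssa-miR-16b-5p and ssa-miR-16c-5p), written below without the prefix, and the table had 0 rows named miR-195 or miR-457. The family was chosen by measured values, since the study had named miR-16b-5p with miR-16c-5p from the difference between stressed and control plasma, so the members' values in that comparison are a description, with no test. No member had the same counts as another row of the table.

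The study asked whether an acute stressor changes miRNAs that can be sampled without killing the fish. Stressed samples were taken 1 h after fish had spent 3 min in air, and control samples before it, with 3 replicates of the experiment for each of plasma, water and mucus (18 libraries). For plasma and for mucus, each library came from 1 fish, and the stressed and the control fish of a replicate were different animals from 1 tank of 4. By the paper's design figure, plasma and mucus of the same treatment and replicate came from the same fish. Stressed and control water of a replicate came from the same 200 L tank. The groups were therefore stressed and control plasma, stressed and control water and stressed and control mucus, all from untagged fish of 30.5 ± 3.9 cm and 322 ± 138 g with no genotype, sex or age given in the labels. Plasma, water and mucus RNA were each extracted with a different kit, and water was filtered first, so sample type and extraction cannot be told apart. In plasma and mucus, fewer cells or vesicles of a type and less RNA from each cannot be told apart.

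miRNAs are short RNAs that bring a silencing complex to messenger RNAs, chiefly through bases 2 to 8 of the miRNA, the seed. The 5p strands of miR-15 and miR-16 share their seed, so they are expected to read the same set of messages, and in mammals these include cyclins, the kinases that start DNA replication and the survival factor BCL2. The family is best known as a brake on the cell cycle that is lost in a human B-cell leukaemia. In mammals miR-16 is abundant in red blood cells and plasma, where it is often used as a reference. The 3p strand comes from the other side of the hairpin and does not carry this seed, which sets miR-15a-3p apart from the other members.

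The table gives names and counts without sequences. The sequence below is shown because it carries the seed through which the family is defined: it was the sole read with that seed at bases 2 to 8 among the frequent trimmed reads listed in the study's read quality files of the plasma libraries. Capitals mark the seed, written in DNA letters. The read quality lists do not pair the read with a row, so it stands for no single member. Its next-to-last base differs from that of the miR-16b-5p sequence that the paper lists among its primers.
family seed read: tAGCAGCAcgtaaatattggag

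Depth, taken here as the counts of all known miRNAs, differed between the libraries. The counts of all known miRNAs ranged between 3815302 and 12858162 in stressed and control plasma, between 3061303 and 4792838 in stressed water, between 315428 and 591733 in control water and between 415594 and 1728386 in mucus. On average, stressed water thus had 9.54-fold the known-miRNA counts of control water. By the paper's test over sample types and treatments, the number of reads sequenced did not differ. In the study's read quality files, each stressed water library still had more raw reads than the control library of its tank. In each tank, the fold excess of raw reads was smaller than that of the known-miRNA counts. The part of reads sequenced in the gap was not tested. Known miRNAs took between 3.63% and 91.2% of a mucus library's counts, the rest going to predicted locations, against between 62.0% and 97.2% in plasma and water. Levels are therefore given as CPM, here counts per 1000000 counts of known miRNAs of the same library. A count of 0 allows up to 3 counts, which is 1.74 to 9.51 CPM in control water and mucus, and such limits cover counting error only. Epithelial and skin miRNAs (15 rows of miR-200, miR-203, miR-205 and miR-429, summed with identical rows once) stood at 620.2 to 11904 CPM in plasma. They stood at 92401 to 136934 CPM in water and 71912 to 183929 CPM in mucus. This sum sets plasma apart from the other 2 sample types but does not tell water from mucus. No row named miR-141 was present.

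miR-16a-5p was the leading member of the family and the 19th most abundant of the known miRNAs counted in plasma. It stood at 6039, 8194 and 9315 CPM in stressed plasma and at 3629, 6975 and 7293 CPM in control plasma. The mean was 7849 ± 1665 in stressed plasma and 5966 ± 2029 in control plasma (SD, n = 3 each). The groups overlapped, with control replicate 1 the lowest of the 6 libraries and stressed replicate 3 the highest. In water, miR-16a-5p stood at 689.8, 1021 and 557.9 CPM in stressed libraries, against 0, 0 and 507.2 CPM in control libraries. All 3 stressed libraries and control replicate 3 were thus of like level, and control replicates 1 and 2 were at 0 with limits of 5.07 and 7.47 CPM. In mucus it was at 0 in all 6 libraries, 3 stressed and 3 control, with limits between 1.74 and 7.22 CPM. The order of its levels was plasma, then stressed water and control water replicate 3, then the 8 libraries at 0, which cannot be ordered among themselves.

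**Figure D1:**
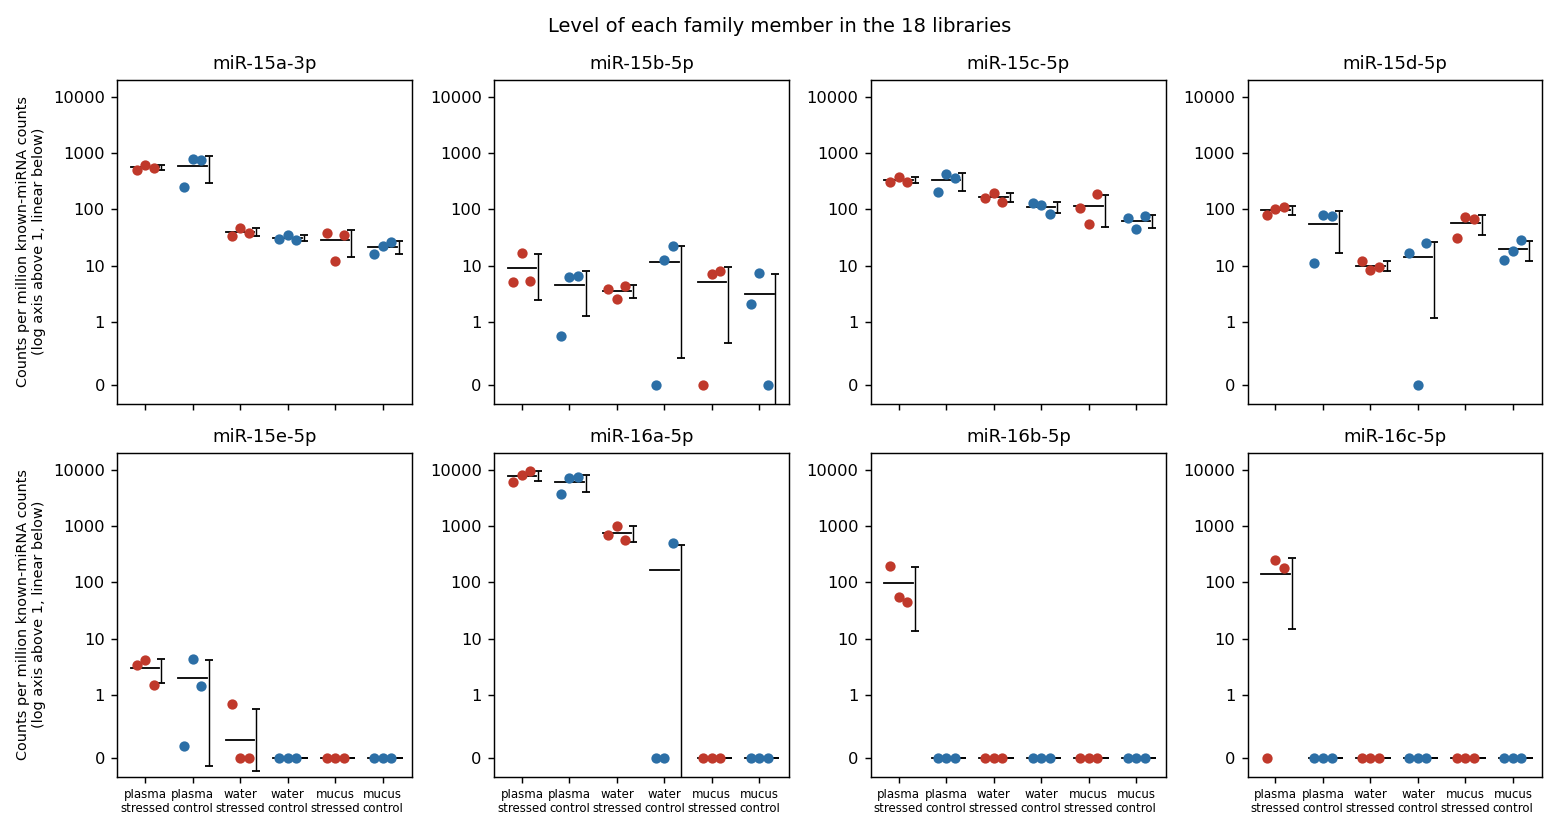
CPM of known miRNAs (vertical axis, logarithmic above 1 and linear below) of each member in the 18 libraries by group; points are libraries in the order of replicates 1 to 3, lines are group means and bars are SD of 3 libraries, drawn to the lower edge where they pass below 0. miR-16a-5p is at 3629 to 9315 in plasma and at 0 in all 6 mucus libraries, and miR-16b-5p and miR-16c-5p have points above 0 in stressed plasma only.

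miR-16b-5p, named for a further gene of miR-16, was counted in stressed plasma and in no other group. It had 752, 709 and 241 counts in stressed plasma, which is 197.1, 55.1 and 44.96 CPM, against 0 counts in each of the 3 control plasma libraries. Measured against 3 counts in each control library, its mean level was at least 220-fold higher in stressed plasma. Stressed replicate 1 had the highest level and the 3 stressed libraries lay above all control libraries. It was the 1 member of 7 tested whose plasma groups did not overlap with the stressed libraries higher, where 5.48% of all 365 rows tested in plasma did, and nothing is read from this since the comparison chose the member. By RT-qPCR in plasma samples that had not been sequenced, the paper reported a far smaller rise of miR-16b-5p. That rise did not reach the paper's threshold of significance. The RT-qPCR values were scaled to a common miRNA input, a measure unlike CPM. The paper also reported that RT-qPCR and sequencing values in plasma were positively correlated.

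miR-16c-5p, likewise a miR-16 of its own name, had 0, 3168 and 966 counts in stressed plasma (0, 246.4 and 180.2 CPM), against 0 counts in each control plasma library. Its mean level was at least 315-fold higher in stressed plasma by the same limit, and stressed replicate 1, which had the most miR-16b-5p, had 0 counts. It did not pass the filter on low counts of the edgeR fit. Both rows were at 0 in all 6 water and all 6 mucus libraries.

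Set against miR-16a-5p of the same library, these 2 rows were small. miR-16b-5p made 3.26%, 0.673% and 0.483% of the miR-16a-5p count in stressed plasma, and 3 counts would have made 0.0162%, 0.00471% and 0.00599% of it in the 3 control libraries. miR-16c-5p made 0%, 3.01% and 1.93% of the miR-16a-5p count in stressed plasma. Each of these 2 rows thus held at most 3.26% of the counts that went to miR-16a-5p, whose own level overlapped between the groups.

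Counts of 0 beside high counts within a group, as for miR-16c-5p in stressed plasma, were not particular to the family. Of the known miRNAs with at least 100 counts in some library of a group, 10.6% in stressed plasma (16 of 151) and 13.6% in control plasma (21 of 154) had 0 counts in another library of the same group. The shares were 7.63% and 17.1% in stressed and control water and 12.5% and 31.1% in stressed and control mucus. miR-16c-5p was among the 16 in stressed plasma and miR-16a-5p among the 13 in control water. miR-16b-5p was counted in all stressed and in no control plasma libraries, a pattern between groups that these shares do not cover. By the study's run logs, miRDeep2 annotated each library by itself, and whether a 0 stands for missing reads or for reads given no name was not tested.

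The 5 miR-15 rows gave another picture in plasma. miR-15a-3p, the 3p strand, stood at 511.4, 614.5 and 547.4 CPM in stressed plasma and at 247.9, 794.7 and 753.9 CPM in control plasma. miR-15c-5p stood at 307.4, 377.3 and 310.1 CPM in stressed plasma and at 205.002, 426.7 and 354.8 CPM in control plasma. For both rows the 3 stressed values lay between the lowest and the highest control values. miR-15d-5p stood at 79.4, 101.1 and 111.0 CPM in stressed plasma and at 11.4, 81.4 and 75.2 CPM in control plasma. It was higher in the stressed library of each replicate number, with stressed replicate 1 below control replicate 2. The 2 scarcest rows stayed under 20 CPM in every plasma library, miR-15b-5p at 5.24 to 16.95 in stressed and 0.784 to 6.70 in control plasma and miR-15e-5p at 1.49 to 4.20 in stressed and 0.196 to 4.38 in control plasma. Summed, the miR-15 rows averaged 998.8 CPM in stressed plasma and 990.3 CPM in control plasma.

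Across sample types, 3 of 6 members tested were higher in plasma than in water by the test. The 6 include miR-16b-5p, which was at 0 in control plasma and in all water libraries, so its contrast is not used. The fit held all 18 libraries in 6 groups and compared the mean of the stressed and control levels, with calls at p of 0.05 or less and FDR under 0.1 where the log2 fold change exceeded 2 in size. Of the 346 rows tested, 28.9% were called higher in plasma, and the median log2 fold change was 1.85 over all rows and 0.56 over the 166 known miRNAs. miR-15a-3p stood at 33.9, 47.4 and 39.0 CPM in stressed water and at 30.4, 34.9 and 28.5 CPM in control water, so that all plasma libraries lay above all water libraries, as did those of miR-15c-5p and miR-16a-5p and of 18.5% of all rows. Its log2 fold change of plasma minus water was 3.43 ± 0.62 (SE), with an adjusted p of 0.000921 by edgeR's quasi-likelihood test. The call was kept in all 18 fits that left out 1 library, with adjusted p between 0.00138 and 0.0229, and in the stressed and the control libraries alone (3.19 and 3.67 on the log2 scale), which were compared after seeing the data. It was lost when no filter on low counts was used, at an adjusted p of 1.00, where 31 rows were called in all.

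miR-16a-5p was called higher in plasma than in water with a log2 fold change of 3.85 ± 1.44 (SE) and an adjusted p of 0.0675. This call was lost in 9 of the 18 fits that left out 1 library, with adjusted p up to 0.158, by DESeq2, at 0.201, and with no filter, at 1.00. It was also lost in the stressed libraries alone (2.79 on the log2 scale, adjusted p of 0.338) and in the control libraries alone (4.90, adjusted p of 0.162). Over the fits without 1 library the log2 fold change lay between 3.59 and 10.22, the highest being without water control replicate 3, the sole control water library with the row. Stressed plasma averaged 10.4-fold the level of stressed water, without overlap. miR-15d-5p was called with 2.07 ± 0.86 (SE) and an adjusted p of 0.0771, close to the fold threshold, and lost its call in 16 of the 18 fits that left out 1 library and in the fit with a replicate block (adjusted p of 0.172). It also lost it by DESeq2 (adjusted p of 0.203), with no filter, in the stressed or the control libraries alone, and with rows of identical counts kept once, where the log2 fold change was 1.98. It stood at 12.3, 8.49 and 9.39 CPM in stressed water and at 16.9, 0 and 25.4 CPM in control water. Control plasma replicate 1, at 11.4, lay within the range of the water libraries.

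miR-15c-5p and miR-15a-3p were the members counted in all 18 libraries. miR-15c-5p stood at 160.5, 198.6 and 137.1 CPM in stressed water, against 128.4, 122.1 and 82.4 CPM in control water, and the plasma libraries all lay above both. The log2 fold change of plasma minus water was 0.66 ± 0.56 (SE; adjusted p of 0.374), which is 0.10 above the median of the known miRNAs. miR-15b-5p had -0.39 ± 1.2 (SE; adjusted p of 0.874), with 3.89, 2.61 and 4.38 CPM in stressed water and 0, 12.5 and 22.2 CPM in control water. miR-15e-5p had 4 counts in stressed water replicate 1 (0.864 CPM) and 0 in the other 5 water libraries. Its 3 stressed plasma libraries, at 1.49 to 4.20 CPM, lay above the 3 stressed water libraries and above the limits of 0.626 and 0.980 CPM that their zeros allow, whereas control plasma, at 0.196 to 4.38 CPM, lay under the limits of control water.

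In mucus the family was thin. miR-15a-3p stood at 38.5, 12.03 and 35.1 CPM in stressed mucus and at 16.1, 22.6 and 26.98 CPM in control mucus. Its log2 fold change of plasma minus mucus was 3.96 ± 0.63 (SE) with an adjusted p of 0.000294, called in all 18 fits that left out 1 library and lost when no filter was used. Of all rows, 32.9% were called higher in plasma than in mucus, the 6 plasma libraries lay above the 6 mucus libraries in 15.9%, and the median was 1.98. miR-16a-5p was at least 1806-fold higher in plasma than in mucus, taking 3 counts in each mucus library. No test of it is used here, since it was at 0 in all mucus libraries and passed the filter through the groups where it was high. Of 107 known miRNAs with at least 100 counts in all 6 plasma libraries, 5 were at 0 in all 6 mucus libraries, namely miR-16a-5p with let-7j-5p, miR-125a-2-3p, miR-125b-5p and miR-128-4-5p.

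miR-15c-5p stood at 104.9, 55.3 and 185.4 CPM in stressed mucus and at 69.7, 45.1 and 75.5 CPM in control mucus. Its log2 fold change of plasma minus mucus was 1.35 ± 0.56 (SE; adjusted p of 0.0654), under the fold threshold. That was 0.08 above the median of the known miRNAs. miR-15c-5p passed the fold threshold with library totals in place of TMM scaling (2.61). Under that scaling the median was 3.64 over all rows and 2.49 over the known miRNAs. It also passed with known miRNAs alone (2.02) and without mucus control replicate 3 (2.31) or water control replicate 3 (2.03). miR-15d-5p had 0.56 ± 0.83 (SE; adjusted p of 0.632) and miR-15b-5p 0.27 ± 1.21 (SE; adjusted p of 0.925). miR-15b-5p had at most 13 counts in a mucus library and 0 in 2 of 6, and miR-15e-5p had 0 in all 6. miR-15e-5p did not pass the filter of this fit. Its 6 plasma libraries (0.196 to 4.38 CPM) lay above these zeros but not above the limits that the zeros allow (1.74 to 7.22 CPM). With library totals in place of TMM scaling it passed the filter through the plasma groups, where it is higher. Its calls over mucus and over water under that scaling are therefore not used.

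Between water and mucus, 7.23% of all rows were called higher in water, and no member counted in both was. miR-16a-5p in stressed water was at least 180-fold above stressed mucus by the 3-count limit. Its test against the zeros of mucus is again not used, and in control water 2 of 3 libraries were at 0 too. miR-15d-5p was the 1 member with more in mucus: it stood at 31.5, 72.2 and 67.6 CPM in stressed mucus and at 12.9, 18.5 and 28.8 CPM in control mucus, and its log2 fold change of water minus mucus was -1.52 ± 0.85 (SE; adjusted p of 0.295), not called. miR-15a-3p, miR-15b-5p and miR-15c-5p had 0.53, 0.67 and 0.69, with adjusted p of at least 0.541.

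**Figure D2:**
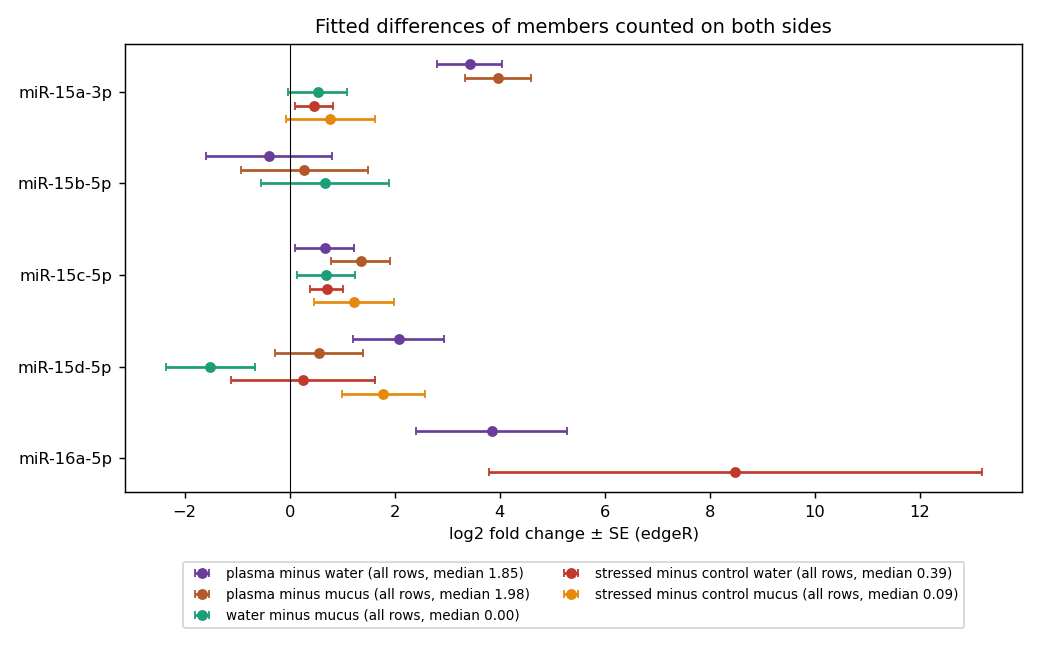
Fitted log2 fold changes with SE (horizontal axis, edgeR) of the members that were counted on both sides of a comparison, for 3 comparisons of sample types and for stressed minus control in water and mucus. miR-15a-3p lies at 3.43 and 3.96 in both plasma comparisons and miR-16a-5p spans the widest interval, 8.49 ± 4.69, in water.

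The make-up of the family therefore differed between the fluids. In plasma miR-16a-5p held 84.5%, 85.3% and 88.6% of the family counts in stressed libraries and 88.6%, 84.2% and 86.0% in control libraries. In water it held 76.5%, 79.9% and 74.6% in stressed libraries and 0%, 0% and 76.2% in control libraries. In mucus it held none, and miR-15c-5p led in 5 of the 6 libraries with 48.1% to 69.1%. The exception was stressed mucus replicate 2, where miR-15d-5p held 49.2% and miR-15c-5p 37.7% of 61 counts. Ratios within a library do not depend on how libraries are scaled to each other. The ratio of miR-15a-3p to miR-15c-5p was 1.66, 1.63 and 1.77 in stressed plasma and 1.21, 1.86 and 2.12 in control plasma, against 0.211 to 0.346 in the 6 water libraries and 0.189 to 0.5 in the 6 mucus libraries. No plasma library overlapped with a water or mucus library in this ratio.

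**Figure D3:**
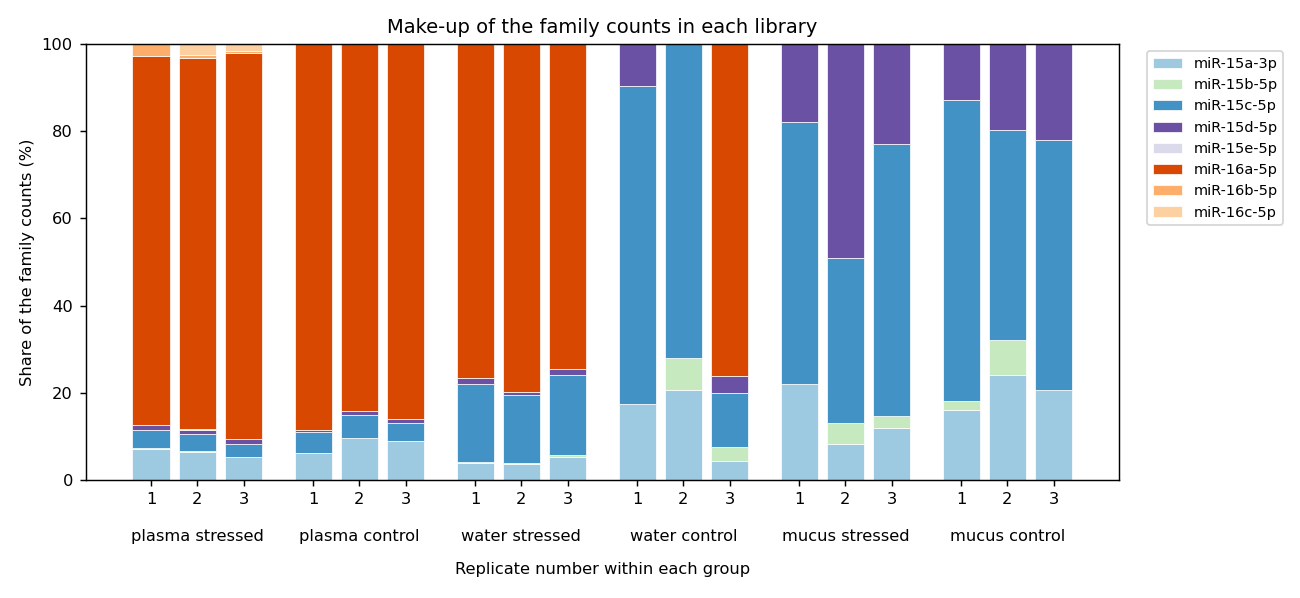
Share of the family counts (percent, vertical axis) held by each of the 8 members in each library, by group and replicate number. miR-16a-5p holds 74.6% to 88.6% in the 10 libraries where it is counted, and miR-15c-5p and miR-15d-5p hold most of the family in the other 8.

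The ratio of miR-16a-5p to miR-15c-5p was 19.6, 21.7 and 30.04 in stressed plasma and 17.7, 16.3 and 20.6 in control plasma. In stressed water it was 4.30, 5.14 and 4.07, and in control water replicate 3 it was 6.15. Control water replicates 1 and 2 allowed at most 0.0395 and 0.0612, and the mucus libraries at most 0.0101 to 0.130. The ratio thus took 3 separate ranges, and control water had libraries in the middle and in the lowest one. The ratio of miR-15d-5p to miR-15c-5p was 0.258 to 0.358 in stressed plasma, 0.0554 to 0.212 in control plasma, 0 to 0.308 in water and 0.185 to 1.30 in mucus, ranges that overlapped between the fluids.

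**Figure D4:**
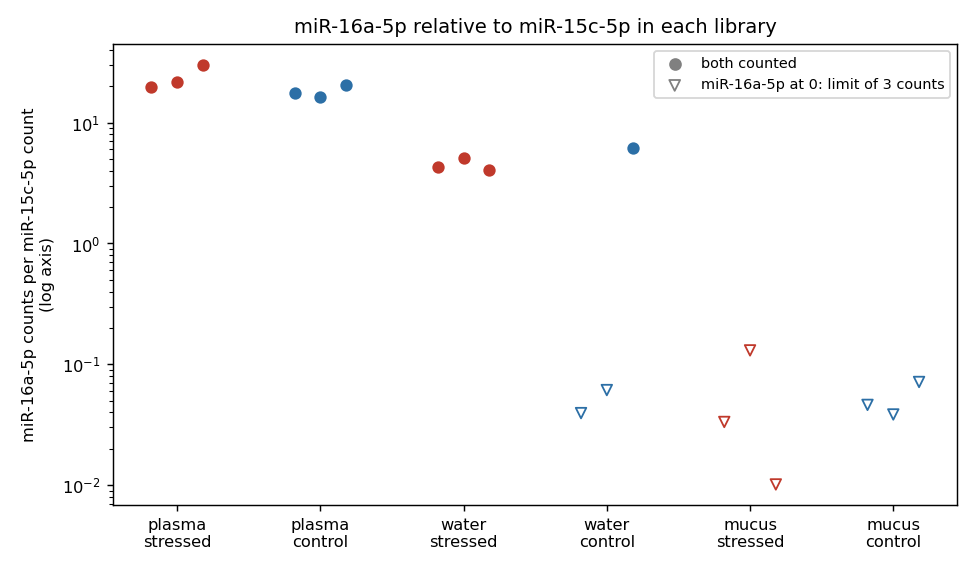
Counts of miR-16a-5p per count of miR-15c-5p in each library (logarithmic vertical axis), by group; filled circles are libraries with both rows counted and open triangles are the limits of 3 counts where miR-16a-5p is at 0. Plasma lies at 16.3 to 30.04, stressed water and 1 control water library at 4.07 to 6.15, and the other 8 libraries are limits of at most 0.130.

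As a share of all known miRNA counts, the family held 0.714%, 0.961% and 1.05% in stressed plasma and 0.409%, 0.829% and 0.848% in control plasma. It held 0.0901%, 0.128% and 0.0748% in stressed water, against 0.0176%, 0.0169% and 0.0666% in control water. It held 0.0175%, 0.0147% and 0.0296% in stressed mucus, against 0.0101%, 0.00937% and 0.0131% in control mucus. By this share, stressed and control libraries overlapped in plasma and did not in water and mucus. With all rows as denominator the mucus groups overlapped. Stressed mucus replicate 1 then had 150 family counts of 23634159 in all and stressed replicate 3 had 473 of 1751108. Control mucus replicate 2, with 162 of 2146511, lay between them. Without miR-16a-5p, a sum chosen after seeing the data, the miR-15 rows of water averaged 219.5 CPM in stressed and 167.9 CPM in control libraries, so most of the difference in water was miR-16a-5p.

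Stress in water was tested with the tank as a block, and no member of 4 tested was called or had an unadjusted p under 0.05 by edgeR. miR-16a-5p had a log2 fold change of 8.49 ± 4.69 (SE) and an adjusted p of 0.447, where 3 of 165 rows (1.82%) were called, all lower in stressed water. In tanks 1 and 2 it was at least 136-fold and at least 137-fold higher in stressed water by the 3-count limit, while in tank 3 the ratio was 1.1. Without the block the log2 fold change was 2.59, and with 1 tank left out it lay between 4.84 and 13.81, the highest being without tank 3. Its adjusted p ranged between 0.0233 and 0.777 over 12 alternatives, and it was called by DESeq2 alone (log2 fold change of 9.40, adjusted p of 0.0233). Of 99 known miRNAs with at least 100 counts in all 3 stressed water libraries, 9 were at 0 in at least 2 control water libraries, miR-16a-5p among them.

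miR-15c-5p was higher in stressed water in each of 3 tanks, by 1.25-fold, 1.63-fold and 1.66-fold, and the groups did not overlap. The fitted log2 fold change was 0.71 ± 0.32 (SE) with an adjusted p of 0.392, not called, and the median over all rows was 0.39. miR-15a-3p had ratios of 1.11, 1.36 and 1.37 in the 3 tanks (0.47 ± 0.36 SE; adjusted p of 0.517). miR-15d-5p had 0.25 ± 1.37 (SE; adjusted p of 0.913), with a sign that turned in 3 alternatives. Groups that did not overlap with stressed libraries higher, as for miR-15c-5p and miR-16a-5p, made up 18.8% of all rows tested in water. Of the 8 members, 4 passed the filter on low counts in water, and the other 4 had too few counts to be tested.

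Stress in mucus called no member of 3 tested either, by edgeR or DESeq2, where 0.671% of 149 rows were called. miR-15d-5p came nearest: its 3 stressed libraries, at 31.5, 72.2 and 67.6 CPM, lay above the 3 control libraries, at 12.9, 18.5 and 28.8 CPM. The log2 fold change was 1.78 ± 0.79 (SE), with a p of 0.0675 before and 0.643 after adjustment over 149 rows, and 12.1% of all rows had stressed mucus above control mucus without overlap. These values rest on 27, 30 and 108 counts in stressed and 12, 32 and 16 counts in control mucus. miR-15c-5p had 1.23 ± 0.77 (SE; adjusted p of 0.643) and miR-15a-3p had 0.77 ± 0.85 (SE; adjusted p of 0.895). The difference of the stress response between water and mucus was tested in the fit of 18 libraries. miR-15d-5p had -1.83 ± 1.68 (SE) and miR-15c-5p -0.26 ± 1.11 (SE), and neither was called, as was no other member (0.867% of all rows were).

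Because miR-16 is abundant in mammalian red blood cells, red cell miRNAs were set beside it. Of miR-144, miR-451 and miR-486, only miR-144-5p had a row. It stood at 1387, 421.7 and 692.0 CPM in stressed plasma, against 708.1, 3605 and 1090 CPM in control plasma. The groups overlapped, and its log2 fold change was -1.25 ± 0.69 (SE; adjusted p of 0.993). It was at 10.1 to 34.6 CPM in stressed water and 6.76 to 44.4 in control water, and at 4.38 to 30.3 in stressed mucus and 14.4 to 418.2 in control mucus. By sample type, miR-144-5p averaged 1317 CPM in plasma, 23.3 in water and 96.5 in mucus, and miR-16a-5p was likewise highest in plasma. Within plasma, the library with the most miR-144-5p, control replicate 2, had neither the most nor the least miR-16a-5p. The log2 ratio of miR-16a-5p to miR-23a-5p, kin to an index of red cell lysis in mammalian plasma, was 2.27, 1.75 and 2.92 in stressed plasma and 1.24, 2.90 and 2.1 in control plasma, which overlapped. Leukocyte miRNAs (4 rows of miR-142, miR-150, miR-155 or miR-223, with rows for 3 of these names) summed to 4528 to 7202 CPM in stressed plasma and 3989 to 5984 in control plasma. The part of blood cells in the family's levels was not tested.

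The known miRNAs whose pattern was most like that of miR-16a-5p were miR-125b-5p, miR-128-4-5p and miR-128-2-5p. The measure was the root mean square difference of mean-centred log2 levels over the 18 libraries (1 CPM added), and it was 0.89 for miR-125b-5p, 2.04 for miR-128-4-5p and 2.15 for miR-128-2-5p, which has the same counts as miR-128-3-5p. The median over 204 known miRNAs outside the family was 5.41. miR-125b-5p stood at 15675, 8174 and 10769 CPM in stressed plasma and at 9936, 10044 and 9374 CPM in control plasma, and at 981.8, 2021 and 3052 CPM in stressed water. It was at 0 in the same 8 libraries as miR-16a-5p, control water replicates 1 and 2 and the 6 mucus libraries, and stood at 4220 CPM in control water replicate 3. The likeness thus lay chiefly in which libraries were at 0. Control water replicates 1 and 2, at 0 for both rows, had 591733 and 401369 known-miRNA counts. Replicate 3, where both were counted, had 315428, the lowest of the 18 libraries. Libraries of a sample type share their extraction, and the cause of the shared zeros was not tested.

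**Figure D5:**
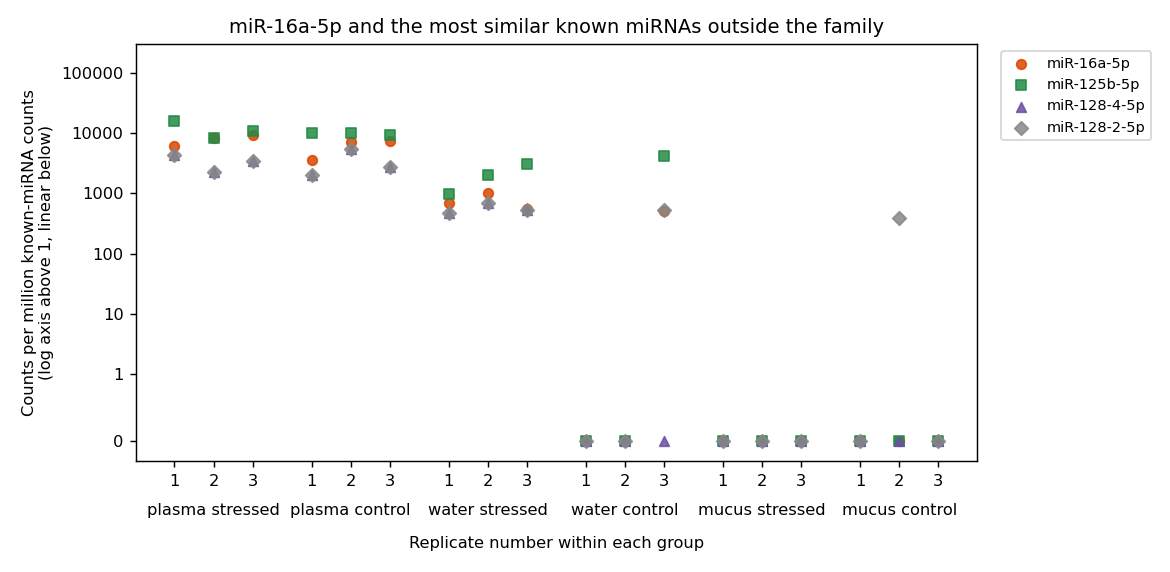
CPM of known miRNAs (vertical axis, logarithmic above 1 and linear below) of miR-16a-5p and of the 3 known miRNAs outside the family with the most similar pattern, in each library by group and replicate number. miR-125b-5p is at 0 in the same 8 libraries as miR-16a-5p, and miR-128-2-5p departs from it in 1 control mucus library.

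The strand given in a member's name has a limit. Of 24 known hairpins listed with both a 5p and a 3p row, 9 had identical counts in both rows in all 18 libraries, so a name in this table does not always mark a strand that was counted apart. miR-15a-3p had no 5p row beside it, and its strand could not be checked from the counts.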

How the data were processed

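The authors trimmed the small RNA reads with cutadapt 2.10 (submitters' processing notes) and, by the paper's methods, ran miARma-Seq, which aligned them with Bowtie 1.1.1 to a rainbow trout genome and assigned them to Atlantic salmon miRNAs with miRDeep2, run on each library by itself according to the study's run logs. The deposited table holds estimated counts, not normalized, averaged over the precursors of a mature miRNA; all values were whole, so rounding changed none. 0 columns of it were left unmapped. The other deposited tables hold the authors' fold changes, p-values and FDR and were not used.

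Groups came from the labels. Counts were tested in R 4.3.3 with edgeR 4.0.16 (TMM, filterByExpr, quasi-likelihood test, Benjamini-Hochberg over all rows tested), and with DESeq2 1.42.0, without filterByExpr, as an alternative. The study itself used both tools. Plasma and mucus were fitted by treatment, and water with the tank as a block, since both water samples of a number came from 1 tank. Deviations of same-numbered stressed and control libraries from their group means correlated at 0.172, 0.172 and 0.0808 in water, -0.104, -0.0173 and -0.174 in plasma and -0.207, -0.144 and -0.188 in mucus. Sample types were compared in a fit of all 18 libraries, so their stressed and control comparisons share libraries. Calls followed the study's thresholds (p of 0.05 or less, FDR under 0.1, absolute log2 fold change over 2). p-values for stress within a sample type measure the spread between 3 replicates of the experiment. Those of the fit of 18 libraries pool this spread over the 6 groups and treat libraries as independent. Plasma and mucus of a treatment and replicate shared a fish, and the water samples of a replicate shared a tank, which that fit leaves out. Levels are CPM of known miRNAs (counts per 1000000 known-miRNA counts). A count of 0 was taken to allow up to 3 counts, per library. Named were all members, the red cell rows, miR-23a for its ratio, and the 3 known miRNAs closest in pattern to the leading member; other names were added after their values were seen. Members and lists were chosen with earlier results of these data known. Each comparison except the difference of stress response was checked on simulated counts. These varied less between libraries than the data and held no rows made to switch from high counts to 0, so the check does not cover those features. Python 3.11 with pandas and matplotlib made the summaries and plots.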

Additional observations from a re-analysis of the deposited data

How the results depend on the processing

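Depth limits the scarce members: a count of 0 in a control water or mucus library allows a level of up to 1.74 to 9.51 CPM, depending on the library. Called as reported were 0 rows for stress in plasma (18 at an unadjusted p under 0.05), 3 in water, 1 in mucus, 152 in plasma minus water, 177 in plasma minus mucus, 51 in water minus mucus and 3 for the difference of stress response between water and mucus. With no filter on low counts, 21 rows were called for stress in plasma, 0 in water, 0 in mucus, 31 in plasma minus water (0 members), 57 in plasma minus mucus (1 member) and 28 in water minus mucus. With known miRNAs only, 1 row was called in plasma, 5 in water, 76 in plasma minus water, 92 in plasma minus mucus and 32 in water minus mucus, the log2 fold change of miR-15d-5p in water was -0.018, that of miR-15b-5p in plasma minus water was 0.12, and that of miR-15c-5p for the difference of stress response was 0.40. By DESeq2, run without the filter, 10 rows were called in plasma, 28 in water (1 member, miR-16a-5p), 14 in mucus, 97 in plasma minus water (1 member) and 26 for the difference of stress response, and miR-15b-5p had 0.39 in plasma minus water. Under the study's edgeR tests, 1 row was called in plasma and 2 in mucus (exact test) and 15 in water (likelihood ratio test). The study listed miRNAs from edgeR and from DESeq2 together, so these counts stand for only a part of its method. With library totals, 1 row was called in water, 0 in mucus and 1 for the difference of stress response. In plasma minus mucus, 247 of 391 rows were called with library totals. These included 4 members, miR-15c-5p and miR-15e-5p among them. Of these members, miR-15e-5p and miR-16a-5p were at 0 in all mucus libraries, so their calls are not used. miR-15b-5p in plasma minus water was 0.17 with library totals and 0.38 with DESeq2 size factors.

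Without the replicate block, 14 rows were called in water and miR-15d-5p had -0.29. With a replicate block, 0 rows were called in mucus, 91 in plasma minus water, 21 in water minus mucus and 1 for the difference of stress response. The block ended the call of miR-15d-5p in plasma minus water and of no other member. Within plasma and within mucus, stressed and control libraries of a number share the replicate of the experiment but not the fish.

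Chosen after seeing the data, stressed libraries alone gave 75 calls in plasma minus water, 13 in water minus mucus, and log2 fold changes of miR-15b-5p of 0.90 in plasma minus water and -0.42 in water minus mucus. Control libraries alone gave 63 calls (1 member) in plasma minus water, 78 in plasma minus mucus and 0 (0 members) in water minus mucus. Without miR-16a-5p the family share was 0.124% in stressed and 0.0990% in control plasma and 0.0219% in stressed water. With all rows as denominator it averaged 0.00981% in stressed and 0.00503% in control mucus, and the libraries of these groups overlapped.

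Leaving out 1 library gave 0 to 1 calls for stress in plasma, 0 in water (a tank left out), 0 to 3 in mucus, 83 to 168 in plasma minus water (1 to 3 members), 120 to 207 in plasma minus mucus (2 to 3 members), 14 to 39 in water minus mucus (0 to 1 member) and 1 to 4 for the difference of stress response. miR-15b-5p then ranged between -1.05 and 0.79 in plasma minus water and between -0.33 and 1.39 in plasma minus mucus, miR-15d-5p in water between -0.71 and 1.014, and miR-15c-5p for the difference of stress response between -0.34 and 0.63. The family share ranged between 0.838% and 1.006% in stressed and 0.619% and 0.839% in control plasma, 0.0825% and 0.109% in stressed and 0.0173% and 0.0421% in control water, and 0.0161% and 0.0236% in stressed and 0.00973% and 0.0116% in control mucus. The share of miR-16a-5p in the family ranged between 84.9% and 86.9% in stressed and 85.1% and 87.3% in control plasma and between 75.6% and 78.2% in stressed and 0% and 38.1% in control water. No member had the counts of another, so keeping such rows once changed no share, but it took miR-15d-5p in plasma minus water to 1.98, under the fold threshold. The causes were not tested.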
